A study of Mus musculus with 6 samples.

Results

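The cytosolic ribosomal protein genes are the protein-coding genes for the proteins of the large and the small subunit of the ribosome in the cytosol. They were taken by name: symbols that start with Rpl or Rps and a number, the stalk genes Rplp0, Rplp1 and Rplp2, and Rpsa, without the ribosomal S6 kinases, Rps19bp1 and pseudogenes. This gave 85 genes, 52 of the large and 33 of the small subunit, among the 57132 gene identifiers measured. Most of them differed little between AS and WT podocytes. Rpl29 and Rpl30 were far higher in AS podocytes, and Rpsa was lower while its near-identical copy Rpsa-ps10 was far higher.

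Messenger RNA was sequenced from 3 samples of immortalized WT podocytes (Col4a3+/+, line IMWT) and 3 samples of immortalized AS podocytes (Col4a3-/-, line IMAS, a model of Alport syndrome). All cells were untreated, came from kidneys of male mice 8 weeks old according to the sample records, carry a temperature-sensitive SV40 T antigen, and were grown at 33 °C with interferon gamma before differentiation at 37 °C. Differentiation took 14 days and interferon gamma was used at 20 U/mL in the records, and the study's methods state other figures for both. Each genotype is 1 line, so genotype and line cannot be told apart, and since nothing states that the samples of a line, sets 1 to 3, were separate cultures, p-values measure only the spread among these samples, which may be technical. The total count lay between 45417221 and 54290968 per sample. Of 12 podocyte markers, Tcf21 had no count in any sample, Nphs1 was at or below 0.473 CPM (counts per 1e6 counts of the TMM-scaled library) in all 6, and Synpo stood at 803 ± 44.2 CPM in WT podocytes and 526 ± 30.8 CPM in AS podocytes (SD, n = 3 each), so Tcf21, a defining marker of the labelled cell type, was not detected.

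A ribosome holds 1 copy of nearly every ribosomal protein, and cells make these proteins in balanced amounts. Proteins made in excess are degraded. Most of their mRNAs begin with a C followed by a run of pyrimidines, the terminal oligopyrimidine tract, through which the mTOR pathway and the RNA-binding protein LARP1 set how well they are translated. The genes are also known for the large number of processed pseudogenes that were copied from their mRNAs. Such a copy lacks introns and can be nearly identical to the mRNA of its parent, so a read from one can be counted on the other.

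Among the sequences that bear on the counts are therefore those of Rpsa and Rpl29. They are shown beside copies that moved against them, Rpsa-ps10 on chromosome 3 and Gm8210 on chromosome 1. The copies of Rplp0 and Rps3a1 held more counts than those of Rpl29 and are not shown. Each stretch below is 60 bases of exonic coding sequence of the parent and the matching bases of its intronless copy, on GRCm38, with the bases that differ in capitals:

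Rpsa, chr9:120129208-120129267, plus strand: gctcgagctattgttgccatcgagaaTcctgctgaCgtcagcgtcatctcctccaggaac

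Rpsa-ps10, chr3:150073300-150073359, minus strand: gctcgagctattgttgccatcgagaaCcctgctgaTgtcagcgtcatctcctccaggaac

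Rpl29, chr9:106430312-106430371, plus strand: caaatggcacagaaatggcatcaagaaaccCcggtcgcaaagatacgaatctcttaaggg

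Gm8210, chr1:43189197-43189256, plus strand: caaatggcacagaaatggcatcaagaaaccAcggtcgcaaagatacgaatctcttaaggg

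Over the whole coding sequence, Rpsa and Rpsa-ps10 differed at 6 of 885 bases, an identity of 99.3%. Counted from 1 at the first base of the start codon, with the base of the gene first, these were C25A, T210C, C219T, C345G, C696T and G858A. The longest stretch without a difference was 350 bases. Rpl29 and Gm8210 differed at 3 of 480 bases, at C72A, C300T and T423C, and shared a stretch of 227 bases. Few positions thus separate each gene from its copy.

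A run of pyrimidines after a C lies near the start sites of Rps12 and Rpl28, which were called higher and lower in AS podocytes, and of Rps6, which was not called. The run begins at offsets of 8, -2 and -1 bases from the annotated start in Rps12, Rpl28 and Rps6. At the start annotated for Rps12, the mRNA thus does not begin with the run. Each sequence goes from 30 bases before the start annotated in RefSeq (GRCm38.p6) to 25 bases after it, with the run of pyrimidines in capitals:

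Rps12, chr10:23787185-23787239, minus strand: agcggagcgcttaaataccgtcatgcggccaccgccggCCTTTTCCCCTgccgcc

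Rpl28, chr7:4792935-4792989, plus strand: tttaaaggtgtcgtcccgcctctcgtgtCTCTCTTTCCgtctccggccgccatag

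Rps6, chr4:86857343-86857397, minus strand: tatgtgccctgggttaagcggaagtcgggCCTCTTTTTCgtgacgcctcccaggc

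A start sequence was at hand for 65 of the 85 genes. On the gene's own strand, a C followed by at least 4 pyrimidines stood within 25 bases of the start in 55 of the 65 (84.6%), against 59.3% of 27025 genes. In the 300-base promoter window on both strands, CCGGAAG was found in 26 of the 65 and in 9.93% of all genes, AAGATGG in 15.4% and 7.28%, and TATAA in 27.7% and 28.0%. Rps12, Rpl28 and Rps6 each had such a run near the start, and their log2 fold changes were 0.50, -0.17 and -0.09.

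The family was abundant. In WT podocytes 75 of the 85 genes were above 50 CPM, from 62.8 CPM for Rpl30 to 648 CPM for Rpl4. Per kilobase of 1 annotated principal transcript, these 75 spanned 20.9 to 704 CPM per kb, a range of 33.7-fold, with a median of 263. The lowest were Rps15a, Rpl7l1 and Rps20, whose chosen transcripts are long, at 5130, 2606 and 3706 bases. The low end of the range thus depends on the transcript chosen. The 3 highest per length were the stalk gene Rplp1 (704 ± 102 CPM per kb in WT, 859 ± 47.4 in AS podocytes), Rps2 (579 ± 51.7 and 608 ± 10.3) and Rps15 (536 ± 48.7 and 672 ± 15.3; SD, n = 3 each), where neighbours in this order, but not the first and the last, overlap within 1 SD in WT podocytes. The spread among samples was small, with a median coefficient of variation over the genes tested of 8.19% in WT and 3.39% in AS podocytes.

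Of the 85 genes, 82 passed the filter on low counts. Rpl10l and Rpl39l, paralogs known from the testis, had no count in any sample, so that levels of up to 0.0209 CPM (WT) and 0.0198 CPM (AS) would have gone unseen (3 counts per group, counting error only). Rpl3l, the paralog of heart and skeletal muscle, had 3, 0 and 2 counts in WT samples 1 to 3 and 1, 6 and 5 in the AS samples. These 3 genes were not tested.

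Other genes that every ribosome needs were listed at very low counts. Rpl24 had 14, 13 and 13 counts in the WT and 12, 4 and 19 in the AS samples, and Rps10 had 82, 87 and 94 in the WT and 111, 120 and 96 in the AS samples. Rpl13a lay between 380 and 585 counts over all 6 samples, far below most of the family. In GENCODE M21 each of these shares exonic bases on its own strand with a longer gene: 484 bases of Rpl24 with Gm28037, 475 bases of Rps10 with RPS10-NUDT3, and 705 bases of Rpl13a with Gm45713. Whether reads were lost to these overlaps in counting was not tested, and the levels of these genes are uncertain.

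As a share of all counts, the family held 1.53%, 1.81% and 1.77% in WT samples 1 to 3 and 1.81%, 1.94% and 1.84% in AS samples 1 to 3. WT sample 1 was low, while WT sample 2 and AS sample 1 were alike, so that the groups overlapped. The mean was 1.70% ± 0.153 in WT podocytes and 1.86% ± 0.0683 in AS podocytes (SD, n = 3 each), with a two-sided exact permutation p = 0.2, where 0.1 is the smallest that 3 against 3 can give. No difference in the share was thus shown at this number of samples. In these bulk samples, a lower share of a gene in each cell and fewer cells that express it cannot be told apart.

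WT sample 1 stood apart across the family, and over all genes tested as well. Over all genes tested, its counts differed from those of WT samples 2 and 3 with a chi-square per degree of freedom of 47.2 and 49.5. Between WT samples 2 and 3 this value was 9.72. Within the family, WT sample 1 was the lowest of the WT samples in 79 of the 82 genes tested. The median over these genes of log2(CPM + 0.01), relative to the WT mean of each gene, was -0.13, 0.06 and 0.06 in WT samples 1 to 3 and 0.06, 0.14 and 0.05 in AS samples 1 to 3. The share of counts on mitochondrially encoded genes was also lowest there, at 0.882% against 1.30% to 2.02% in the other 5 samples, and its part in the low family level was not tested.

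**Figure D1:**
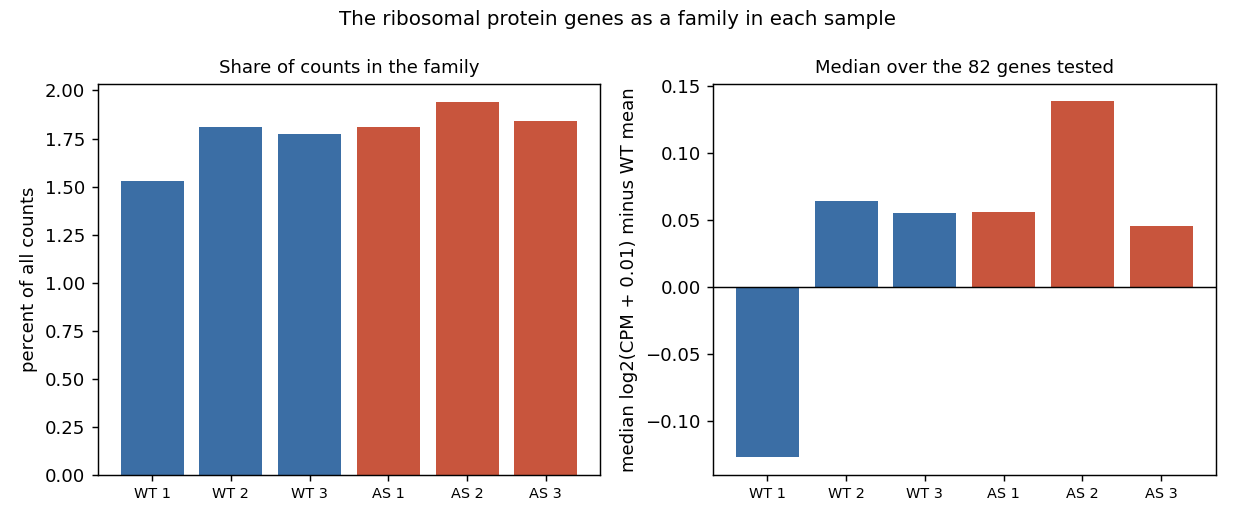
Left: percent of all counts on the 85 ribosomal protein genes in each of the 6 samples (1 bar a sample, blue WT, red AS). Right: the median over the 82 genes tested of log2(CPM + 0.01) minus the WT mean of the gene. WT sample 1 is the low one in both panels, at 1.53% and -0.13.

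Among the 82 genes tested, 19 (23.2%) were higher in AS podocytes and 2 (2.44%) lower at an adjusted p under 0.05 (edgeR's quasi-likelihood test, Benjamini-Hochberg adjustment over all 16263 genes tested). Over all genes tested, 20.4% were higher and 19.6% were lower. The share of ribosomal protein genes called higher was thus near the background, and the share called lower was below it. The median log2 fold change was 0.07, against 0.01 over all genes, and the median size of the change was 0.10, against 0.28 over all genes. In all, 58 log2 fold changes were above and 24 below 0, 61 lay within 0.2 of 0, and 3 were larger than 0.5 in size, those of Rpl29, Rpl30 and Rpsa. The CPM of the groups did not overlap in 30 of the 82 genes (36.6%), 25 of them higher in AS podocytes, against 52.3% of all genes tested.

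The subunits are given apart, without a test between them. Of 49 genes of the large subunit, 13 were higher and 1 was lower, with a median log2 fold change of 0.08. Of 33 genes of the small subunit, 6 were higher and 1 was lower, with a median of 0.07. The 61 genes not called ranged from -0.27 (Rpl24) to 0.25 (Rps10), both of them genes of low count.

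**Figure D2:**
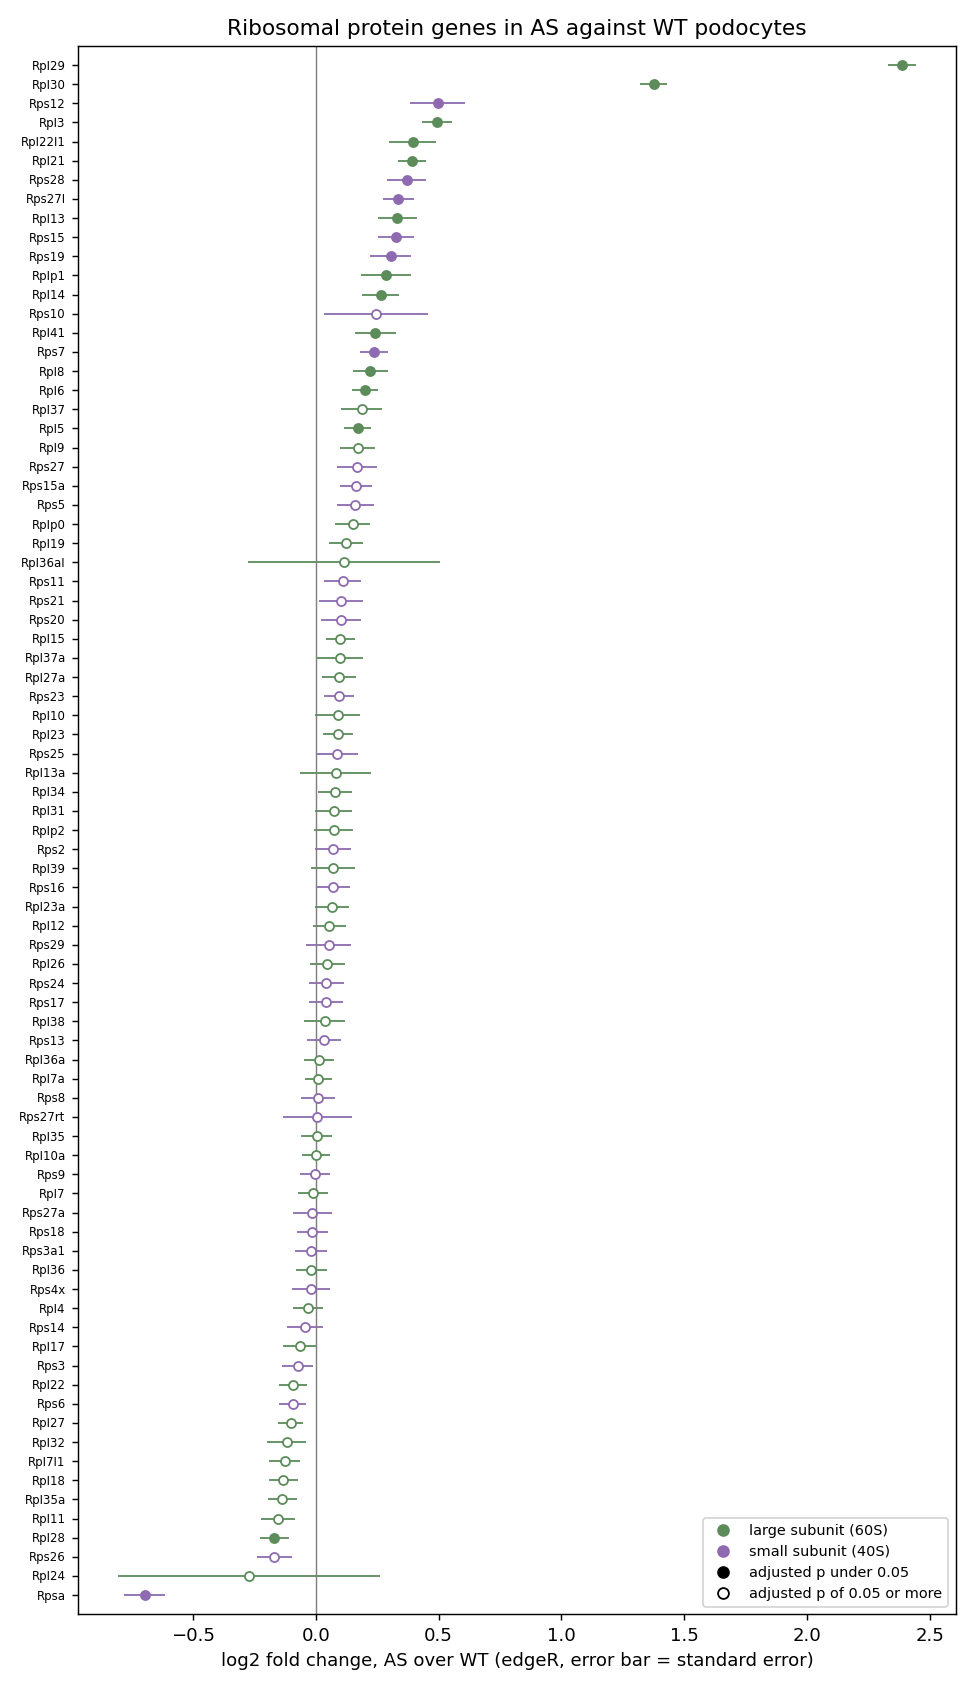
Log2 fold change of AS over WT podocytes for 81 of the 82 ribosomal protein genes tested (x axis, edgeR, bars are standard errors), in order of size, with the large subunit in green, the small subunit in purple and filled points at an adjusted p under 0.05. Rpl29 at 2.39 and Rpl30 at 1.38 lie far to the right and Rpsa at -0.70 to the left of the 61 genes within 0.2 of 0.

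The low WT sample 1 bears on the smaller changes. Without it, 16 genes were higher, all of them among the 19, and 7 were lower in AS podocytes, namely Rpsa and Rpl28 with Rpl32, Rpl18, Rpl35a, Rpl11 and Rps26. The shares of all genes called in that fit are not given here, so these counts have no background beside them. The median log2 fold change of the family was then -0.0017, against 0.01 over all genes. Rpl41, Rpl8 and Rpl5 were those no longer called higher, with adjusted p = 0.0748, 0.0522 and 0.052 (edgeR). The changes of Rpl29, Rpl30 and Rpsa were 2.35, 1.35 and -0.78 without that sample.

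Rpl29 (ENSMUSG00000048758.15, chromosome 9) encodes a protein of the large subunit that mice can live without and that was also described as a heparan sulfate binding protein at the cell surface. It was at 29.9, 32.8 and 32.4 CPM in WT samples 1 to 3 and at 167, 168 and 163 CPM in AS samples 1 to 3. The lowest AS sample was far above the highest WT sample. The means were 31.7 ± 1.53 and 166 ± 2.80 CPM (SD, n = 3 each), a 5.23-fold difference (log2 fold change 2.39 ± 0.06 SE, adjusted p = 6.67e-09, edgeR). Per length, Rpl29 stood at 44.6 CPM per kb in WT podocytes, below most of the family, and at 233 in AS podocytes, near the WT median of 263.

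Rpl30 (ENSMUSG00000058600.14, chromosome 15), a protein of the large subunit at its interface with the small one, had 60.3, 64.6 and 63.6 CPM in the WT and 161, 170 and 159 CPM in the AS samples. Again the groups were far apart. The difference was 2.60-fold (log2 fold change 1.38 ± 0.06 SE, adjusted p = 1.68e-07, edgeR). Per length it rose from 110 ± 3.92 to 286 ± 10.2 CPM per kb, so that Rpl30, like Rpl29, was low in the family in WT podocytes and near its middle in AS podocytes.

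Other genes called higher changed much less. Rps12, a protein of the head of the small subunit, was at 213, 300 and 277 CPM in the WT and 353, 389 and 371 CPM in the AS samples (log2 fold change 0.50 ± 0.11 SE, adjusted p = 0.00637, edgeR). Rpl3, which reaches close to the site of peptide bond formation, was at 236, 267 and 251 against 358, 361 and 344 CPM (0.49 ± 0.06 SE, adjusted p = 0.000245, edgeR). In both genes every AS sample was above every WT sample, and in both WT sample 1 was the lowest. Rpl22l1, the paralog of Rpl22, was at 25.9, 32.7 and 30.7 against 36.7, 42.7 and 38.0 CPM (0.39 ± 0.10 SE, adjusted p = 0.00965, edgeR). A further 13 genes called higher had log2 fold changes from 0.17 for Rpl5 to 0.39 for Rpl21 and include Rps28, Rps27l, Rpl13, Rps15 and Rps19.

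Only Rpsa and Rpl28 were called lower in this fit. Rpl28, of the large subunit, was at 299, 319 and 326 CPM in the WT and 273, 290 and 277 CPM in the AS samples (log2 fold change -0.17 ± 0.06 SE, adjusted p = 0.0462, edgeR). The groups did not overlap, but the gap between them was smaller than the range within the WT group, and the call held in 8 of 16 alternative settings, with an adjusted p of up to 0.150 (edgeR, DESeq2 or limma-voom).

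**Figure D3:**
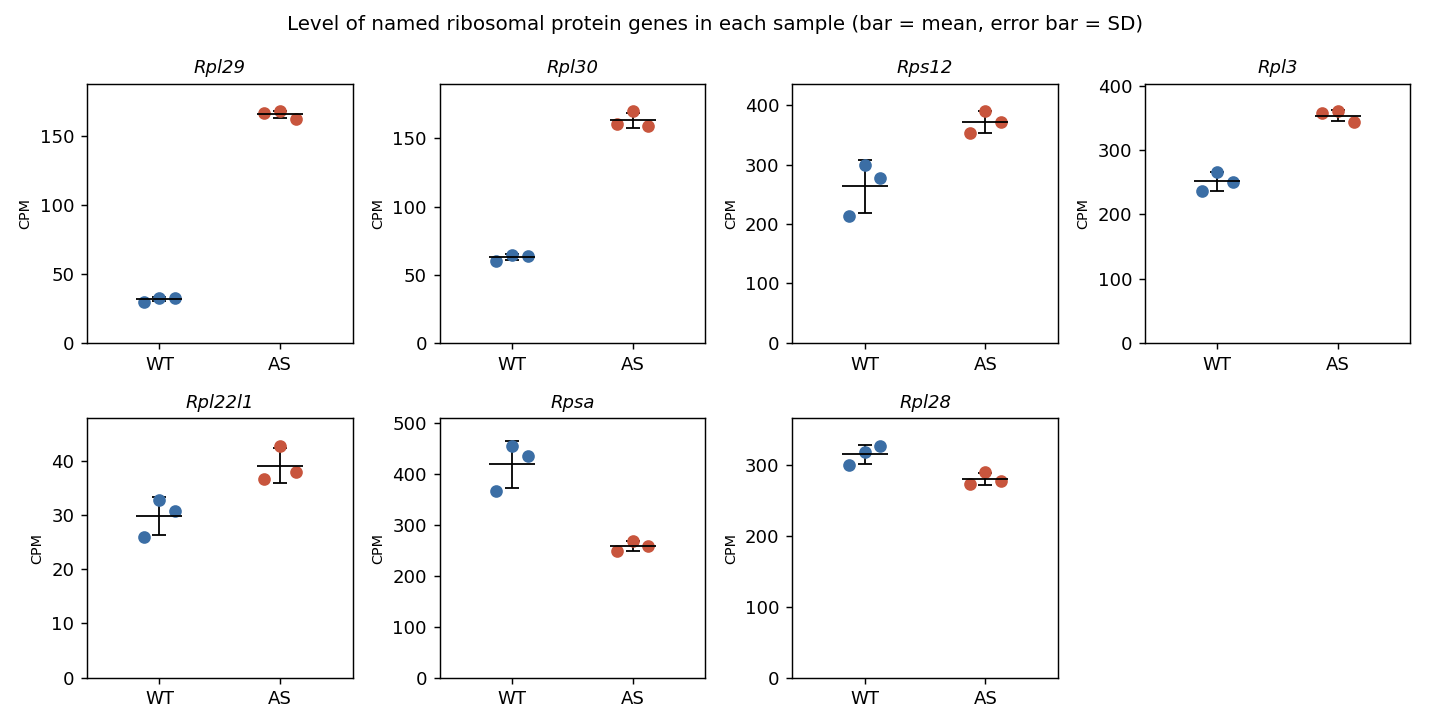
CPM of 7 ribosomal protein genes in each sample (points, 3 WT in blue, 3 AS in red, y axes from 0, each panel with its own scale), with the mean as a bar and the SD as error bar. In Rpl29 the WT samples lie between 29.9 and 32.8 CPM and the AS samples between 163 and 168 CPM, whereas in Rpl28 the groups are separated by a narrow gap.

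Rpsa (ENSMUSG00000032518.7, chromosome 9) encodes a small subunit protein that is also known as the laminin receptor. It was at 367, 454 and 436 CPM in the WT and at 249, 267 and 259 CPM in the AS samples. All AS samples were below all WT samples (log2 fold change -0.70 ± 0.08 SE, adjusted p = 0.000168, edgeR). Its processed pseudogene Rpsa-ps10 had 117, 148 and 138 counts in the WT and 6544, 7644 and 8432 counts in the AS samples. This is a rise from 2.82 ± 0.452 to 149 ± 3.98 CPM (SD, n = 3 each, log2 fold change 5.73 ± 0.10 SE, adjusted p = 3.38e-09, edgeR).

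The sum of Rpsa and all its matching pseudogenes was 371, 459 and 440 CPM in the WT and 397, 419 and 414 CPM in the AS samples, and these groups overlapped. With the pseudogenes added, the log2 fold change was -0.05 ± 0.08 SE (adjusted p = 0.695, edgeR). The call of Rpsa as lower thus ended when counts on its copies were included. Whether the AS line transcribes Rpsa-ps10 or whether reads of Rpsa were placed there was not tested, and a base count at the 6 positions given above was not made here since reads were not analysed.

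Pseudogenes matched 81 of the 85 genes (at least 90% identity over at least 100 bases), with a median of 10 a gene and at most 95, for Rpl29. For Rpl29 the copies moved against the gene. Gm8210 had 1023, 1037 and 1021 counts in the WT and 19, 17 and 23 counts in the AS samples (log2 fold change -5.78 ± 0.14 SE, adjusted p = 7.19e-09, edgeR). Together the copies made up 44.8% of the summed counts in WT and 2.99% in AS podocytes. The sum was 54.2, 59.0 and 59.1 CPM in the WT and 171, 174 and 167 CPM in the AS samples, and the log2 fold change of the sum was 1.57 ± 0.06 SE (adjusted p = 8.93e-08, edgeR). Rpl29 remained called but its fold was smaller.

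Rpl30 gave another picture. Its copies stood at 3.79, 4.38 and 3.84 CPM in the WT and 3.73, 3.50 and 3.85 CPM in the AS samples, and with them added the log2 fold change was 1.32 ± 0.06 SE (adjusted p = 2.44e-07, edgeR). The difference in Rpl30 was thus nearly as large with its copies included.

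In all, 7 genes moved by more than 0.1 on the log2 scale when the matching pseudogenes were added. Rpl3 went from 0.49 to 0.35 and remained called, with Rpl3-ps1 falling from 61.7 ± 4.38 CPM in WT to 44.1 ± 1.58 CPM in AS podocytes (SD, n = 3 each). Rpl15 went from 0.10 to -0.04 and was called in neither fit, and its copies went from 22.7 ± 2.03 to 1.14 ± 0.30 CPM. The copies of Rpl15 include Gm10020, which had 626, 684 and 712 counts in the WT and 3, 1 and 1 in the AS samples. Rpl24 turned from -0.27 to 0.45 (adjusted p = 0.0158, edgeR), but 95.1% of the sum in WT and 97.0% in AS podocytes lay on its copies. The others were Rpl36al and Rpl7l1, called in neither fit. For Rpl7l1, nearly all the added counts lay on Zkscan7, a transcribed unprocessed pseudogene. Zkscan7 matched Rpl7l1 at 94.3% identity over only 122 bases, so it cannot be taken as a copy of that gene. With all matching pseudogenes added, 19 genes were higher, 18 of them among the 19 above, and 1 was lower. The shares over all genes in that fit are not given here.

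**Figure D4:**
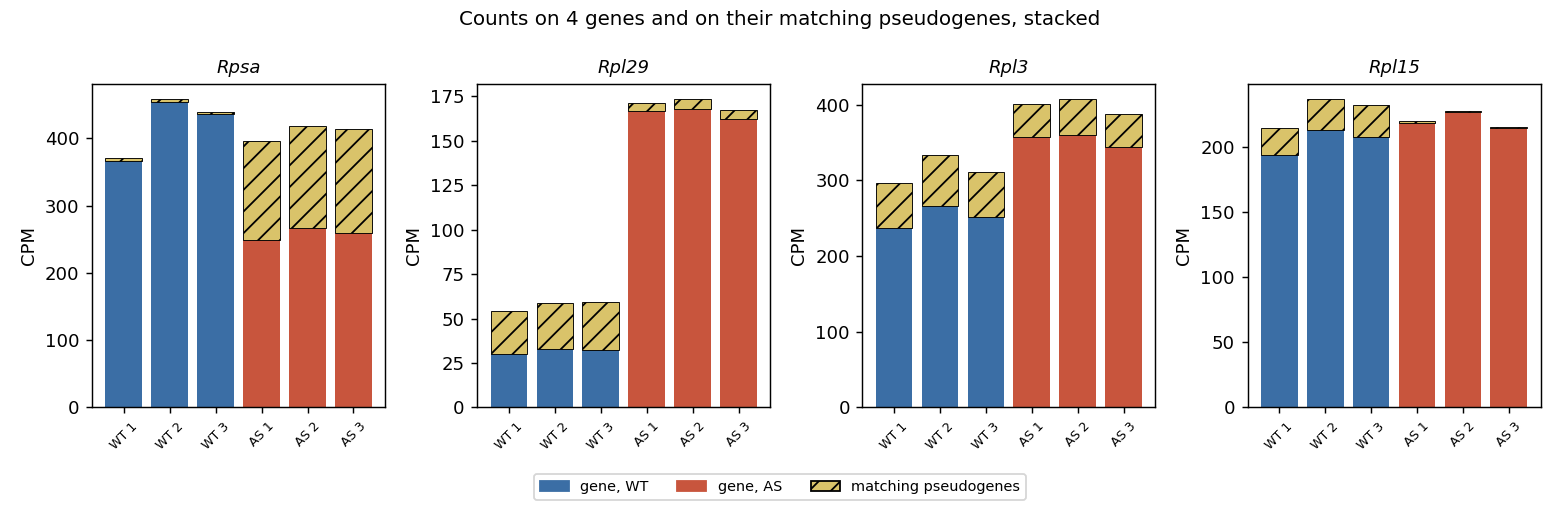
CPM of Rpsa, Rpl29, Rpl3 and Rpl15 in each sample (solid, blue WT, red AS) with the CPM of all matching pseudogenes stacked on top (hatched yellow), y axes from 0. For Rpsa the stacked sums overlap between the groups, at 371 to 459 CPM in WT and 397 to 419 CPM in AS podocytes, whereas for Rpl29 the AS sums remain above the WT sums.

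The stalk of the large subunit, which recruits the elongation factors, is made of Rplp0, Rplp1 and Rplp2. Rplp1 was at 293, 386 and 376 CPM in the WT and 415, 456 and 416 CPM in the AS samples (log2 fold change 0.29 ± 0.10 SE, adjusted p = 0.0469, edgeR). With its pseudogenes added it was no longer called (0.24 ± 0.10 SE, adjusted p = 0.0817, edgeR). Its copy Gm11942 had 740, 599 and 556 counts in the WT and 28, 32 and 32 in the AS samples. Rplp0, its anchor, was at 455, 529 and 523 against 575, 551 and 548 CPM (0.15 ± 0.07 SE, adjusted p = 0.124, edgeR), and Rplp2 at 167, 195 and 196 against 187, 212 and 188 CPM (0.07 ± 0.08 SE, adjusted p = 0.505, edgeR). Only Rplp1 among the 3 stalk genes passed the test, and whether it differed from the other 2 was not tested. Counts on copies of Rplp0 were large in both groups, at 27.9% and 28.9% of the sum.

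Rpl5 and Rpl11 bind the p53 inhibitor MDM2 when ribosome assembly is disturbed. Rpl5 was at 263, 276 and 277 CPM in the WT and 298, 317 and 305 CPM in the AS samples (log2 fold change 0.17 ± 0.06 SE, adjusted p = 0.0354, edgeR). Rpl11 was at 209, 233 and 226 against 206, 211 and 185 CPM (-0.15 ± 0.07 SE, adjusted p = 0.111, edgeR). These calls turned with the settings. Without WT sample 1, Rpl5 was not called (adjusted p = 0.052) and Rpl11 was lower (-0.20, adjusted p = 0.0321, edgeR). With chromosome medians removed, as described below, neither was called, at -0.013 and 0.03.

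Rps6, the target of the ribosomal S6 kinases, was at 254, 273 and 271 CPM in the WT and 257, 247 and 244 CPM in the AS samples (log2 fold change -0.09 ± 0.06 SE, adjusted p = 0.217, edgeR). Rps18, often used as a reference gene, was at 185, 207 and 209 against 194, 205 and 196 CPM (-0.01 ± 0.06 SE, adjusted p = 0.882, edgeR), and its groups overlapped. Rpl13a, known to leave the ribosome in myeloid cells treated with interferon gamma, was at 7.91, 9.53 and 10.3 against 8.44, 11.4 and 9.47 CPM (0.08 ± 0.14 SE, adjusted p = 0.692, edgeR).

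Paralogs were described beside their partners. Rpl22l1 was called higher in AS podocytes, as given above, while its partner Rpl22 was at 104, 110 and 107 CPM in the WT and 102, 105 and 93.7 CPM in the AS samples (log2 fold change -0.09 ± 0.06 SE, adjusted p = 0.241, edgeR). Rps27l, a paralog that p53 induces, was at 69.5, 79.6 and 75.2 against 91.8, 97.6 and 93.5 CPM (0.34 ± 0.06 SE, adjusted p = 0.00234, edgeR), and its partner Rps27 at 105, 132 and 122 against 133, 141 and 130 CPM (0.17 ± 0.08 SE, adjusted p = 0.133, edgeR). In both pairs the paralog passed the test and its partner did not, but the difference within a pair was not tested. Rps27rt, an intronless copy, was at 3.77 ± 0.189 CPM in WT podocytes and 3.79 ± 0.165 CPM in AS podocytes (SD, n = 3 each).

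Rpl7l1 acts in ribosome assembly. It was at 74.6, 67.0 and 68.1 CPM in the WT and 64.8, 66.4 and 60.8 CPM in the AS samples (log2 fold change -0.13 ± 0.06 SE, adjusted p = 0.144, edgeR). Its partner Rpl7 was at 361 ± 19.5 and 358 ± 8.32 CPM. Rpl36al had 16 to 30 counts a sample and shares 332 exonic bases with Gm49383, and its partner Rpl36a was at 117 ± 3.65 and 118 ± 8.28 CPM. Rpl10 and Rpl39, the partners of the undetected Rpl10l and Rpl39l, were at 334 ± 44.1 and 356 ± 8.95 CPM and at 68.5 ± 8.35 and 71.9 ± 3.82 CPM (SD, n = 3 each). None of these partners passed the test.

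To set each gene against the family, the counts were also scaled to the sum of the ribosomal protein genes in each sample. This moved the median log2 fold change of the family by -0.07. Then 12 genes stood above the family in AS podocytes, all among the 19 called higher, and 3 stood below it, with 12.8% of all genes higher and 19.5% lower on the same scale. Rpl29 lay 2.32 and Rpl30 1.31 above the family on the log2 scale (adjusted p = 3.40e-08 and 1.31e-06, edgeR). Rpsa lay 0.76 below it, at a log2 fold change of -0.76 (adjusted p = 6.69e-05, edgeR), followed by Rpl28 and Rps26 at -0.24 each. The 7 genes that were higher on the scale of all genes but not above the family were Rplp1, Rpl14, Rpl41, Rps7, Rpl8, Rpl6 and Rpl5.

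The genes lie on 19 chromosomes, and their changes followed those of their neighbours in part. On 17 chromosomes with at least 2 of the genes, the median log2 fold change of the ribosomal protein genes and that of the other genes tested there had a Pearson r of 0.83 and a Spearman rho of 0.73, given as a description over chromosomes that share all 6 libraries. On chromosome 8 the medians were 0.40 and 0.31, on chromosome 10 they were 0.28 and 0.31, on chromosome 15 they were 0.36 and 0.20, on chromosome 5 they were 0.17 and 0.19, and on chromosome 4 they were -0.09 and -0.17. Chromosomes 5, 8, 10 and 15, singled out after their values were seen, held 15 of the 82 genes tested and 11 of the 19 called higher, among them Rpl30, Rps12 and Rpl3.

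With the median of each chromosome removed, 12 genes were higher, 10 of them among the 19, and 2 were lower, Rpsa and Rps26. The shares over all genes in that fit are not given here. Rps12 went to 0.19 (adjusted p = 0.216) and Rpl13 to 0.03 (adjusted p = 0.79, edgeR). The genes that lost their call as higher lie on chromosomes 5, 8, 10 and 15, apart from Rplp1 on chromosome 9 (adjusted p = 0.0504, edgeR), and Rpl28 on chromosome 7 lost its call as lower (adjusted p = 0.0741, edgeR). Rpl29, Rpl30 and Rpsa stood at 2.39, 1.19 and -0.69 (adjusted p = 7.50e-09, 4.41e-07 and 0.000205, edgeR). Rps26, a gene of chromosome 10 whose protein lies at the exit of the mRNA channel, went from -0.17 to -0.47 (adjusted p = 0.00092, edgeR).

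**Figure D5:**
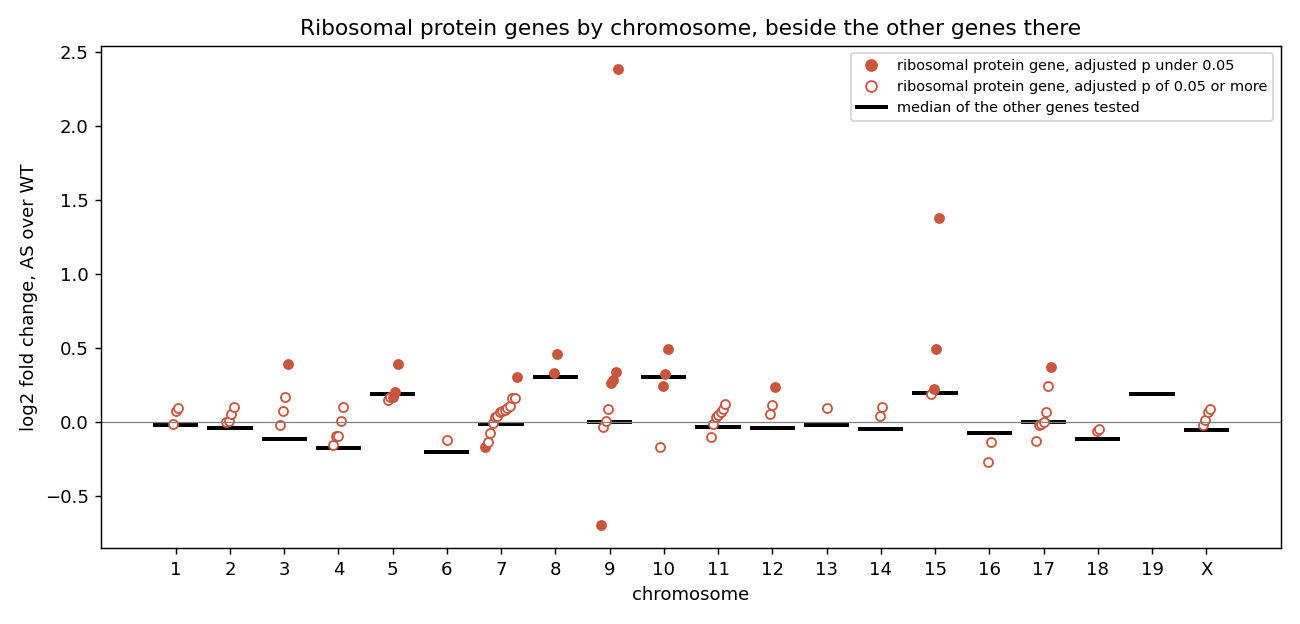
Log2 fold change of AS over WT podocytes (y axis) for the 82 ribosomal protein genes tested, by chromosome (x axis), filled at an adjusted p under 0.05, with a black line at the median of the other genes tested on that chromosome. On chromosomes 5, 8, 10 and 15 the lines lie at 0.19, 0.31, 0.31 and 0.20 and all points but that of Rps26 lie at or above 0.15, and chromosome 19 holds none of the genes.

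Rack1 and Fau, ribosome components that the names do not capture, did not pass the test. Rack1, a signalling scaffold on the small subunit, was at 439 ± 25.5 CPM in WT podocytes and 442 ± 15.5 CPM in AS podocytes (log2 fold change 0.01 ± 0.06 SE, adjusted p = 0.911, edgeR). Fau, which is made as a fusion with a ubiquitin-like protein, was at 169 ± 19.9 and 186 ± 2.91 CPM (0.13 ± 0.08 SE, adjusted p = 0.232, edgeR).

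Of the 78 mitochondrial ribosomal protein genes, 14 were higher in AS podocytes and 10 were lower (edgeR, with 20.4% and 19.6% of all genes), with a median log2 fold change of 0.02. Mrps12 rose from 11.7 ± 0.994 to 21.4 ± 0.592 CPM (SD, n = 3 each). Of 35 ribosome biogenesis factors, 9 were higher and 5 were lower (median 0.05). Among them Utp20, of the small subunit processome, rose from 98.5 ± 2.48 to 150 ± 10.7 CPM and Nol6, of the same complex, fell from 85.9 ± 3.35 to 63.7 ± 0.952 CPM. The share called lower was below that over all genes in both lists. The share called higher was below it for the mitochondrial ribosomal protein genes and above it for the biogenesis factors. These differences in share were not tested.

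Of 10 dedicated chaperones and importers of ribosomal proteins, 3 were higher and 4 were lower (median -0.13), with 20.4% and 19.6% over all genes. Ltv1, which joins the small subunit during its assembly, rose from 25.4 ± 1.57 to 35.1 ± 1.73 CPM, and the importin Ipo7 fell from 169 ± 2.01 to 139 ± 3.74 CPM (SD, n = 3 each). Of 16 genes of the RNA polymerase I machinery, which transcribes ribosomal RNA, 5 were higher and 3 were lower (median 0.10). Polr1a, its largest subunit, fell from 111 ± 0.519 to 75.7 ± 2.73 CPM (log2 fold change -0.55 ± 0.05 SE, adjusted p = 3.72e-05, edgeR).

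Of 15 other mRNAs that are known to begin with an oligopyrimidine tract, 6 were higher and none was lower (median 0.12), where 20.4% and 19.6% of all genes were. Eif3e was at 157 ± 3.68 CPM in WT podocytes and 202 ± 3.29 CPM in AS podocytes, and Eif3h at 164 ± 11.6 and 206 ± 8.21 CPM (SD, n = 3 each). With chromosome medians removed the median of this list was -0.02, and without WT sample 1 it was 0.05. Of 22 translation initiation factors, 1 was higher and 6 were lower (median -0.04, same shares over all genes), with Eif4g1, the scaffold of the cap-binding complex, falling from 804 ± 21.5 to 678 ± 8.29 CPM.

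Of 17 regulators of ribosomal protein synthesis, 7 were higher and 4 were lower (median 0.18), beside 20.4% and 19.6% of all genes. Eif4ebp1, an inhibitor of translation that mTOR inactivates, rose from 33.0 ± 6.37 to 61.8 ± 2.45 CPM (SD, n = 3 each, log2 fold change 0.91 ± 0.12 SE, adjusted p = 0.000401, edgeR). Mxd4, which opposes Myc at its targets, rose from 161 ± 4.81 to 222 ± 6.12 CPM, and Maf1, a repressor of RNA polymerase III, from 44.9 ± 1.57 to 57.7 ± 0.408 CPM. Among the activators, named after their values were seen, Myc and Rheb were higher (log2 fold change 0.51 and 0.38), and Mycn and the regulator Larp1 were lower (-0.79 and -0.16). Activators and inhibitors stand in this list, so its median has no single direction of effect. Of 9 snoRNA host genes found, many of which also begin with the tract, 2 were higher (median 0.24), namely Snhg6, which rose from 6.80 ± 1.49 to 12.9 ± 1.97 CPM, and Gas5, which rose from 42.7 ± 5.07 to 59.7 ± 5.57 CPM.

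Genes of the cell cycle moved more than the ribosomal protein genes did. In AS podocytes 15 of 17 proliferation genes were lower and 1 was higher (median log2 fold change -0.66, with 19.6% of all genes lower and 20.4% higher), and their summed level was 366 to 527 CPM in the WT and 314 to 340 CPM in the AS samples. Of the 12 podocyte markers, 9 were tested, of which 6 were lower and 1 was higher (median -0.40, summed 2147 to 2466 CPM in WT and 1697 to 1835 CPM in AS podocytes). Of 4 parietal epithelial markers, 1 was lower (summed 864 to 1165 and 733 to 845 CPM), and of 4 mesangial markers, of which 3 were tested, 1 was lower (248 to 275 and 122 to 124 CPM). The 6 tubule markers, of which 2 were tested and 2 had no count, stood at 246 to 308 and 197 to 307 CPM with none called, nearly all of it Lrp2. The 5 endothelial markers summed to at most 1.35 CPM, with 1 tested and lower, and the 4 leukocyte markers to at most 3.14 CPM, with 2 tested, none called and 2 without a count. The part of these markers in the values of the ribosomal protein genes was not tested.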

How the data were processed

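RNA-seq libraries of 3 samples of each line were used. The values the authors deposited are raw read counts for each gene, whole numbers that were not normalized. The submitters' processing notes name FastQC, Trim Galore, STAR, edgeR and the build mm39, with no role or order, and the counting tool and annotation release were not given in the sources used here. Library preparation from mRNA included 15 PCR cycles. Identifiers were given symbols from GENCODE M21 (GRCm38, 51880 of 57132 matched, the rest holding 0.363% of the counts), which was also used for sequences, transcript lengths and chromosomes. The members and gene lists were chosen with earlier results of these data known.

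The main test used edgeR 4.0.16 in R 4.3.3 (filterByExpr with minimum count 10 and minimum total 15, TMM, quasi-likelihood test with genotype only, two-sided). Standard errors were approximated from the fold change and its F statistic (their ratio, with the root of F). Fold changes relative to the family used the sum over the ribosomal protein genes, scaled by TMM among them, as library size. Pseudogenes were matched with BLAST 2.17.0 to the whole protein-coding transcripts of the genes, untranslated parts included. Their counts were added to the best-matching gene. Replicates differed by more than sampling noise (chi-square per degree of freedom 9.72 to 49.5). This cannot show that they were separate cultures, since separate libraries of the same culture could also differ. The scripts were tested on simulated data. Genes named are Rpl29, up to 6 called genes with the largest change each way, paralogs with partners, the stalk genes, Rpl5, Rpl11, Rps6, Rpl13a, Rpsa, Rps18, the most abundant per length, up to 3 members of each list and Rack1 and Fau, and a few genes that the rule names are not reported here. Other genes were named after their values were seen, among them Rps26 and those of low count. Alternatives were RLE size factors, library size only, no mitochondrially encoded genes, no filter, a mean CPM of at least 1, DESeq2 1.42.0, limma-voom (limma 3.58.1), a replicate block, each sample left out, pseudogenes added and chromosome medians removed. Sequencing depth and 3 samples a group limit the precision. Detection limits reflect counting error alone, because PCR reads that carry no molecular identifier are not independent molecules.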

Additional observations from a re-analysis of the deposited data

How the results depend on the processing

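The count of ribosomal protein genes higher in AS podocytes (19) was 18 to 19 with DESeq2, limma-voom, RLE size factors, library size only, no mitochondrially encoded genes, pseudogenes added, no filter and a mean CPM of at least 1. It was 12 with chromosome medians removed, and 12 to 20 with each sample left out, with 12 without AS sample 2. The count lower (2) was 1 with library size only, with pseudogenes added (where Rpsa was lost) and without a filter, and 1 to 7 with each sample left out, at 7 without WT sample 1 and at 1 when any other sample was left out. The count above the family (12) was 5 to 12 with a sample left out, at 6 without AS sample 2 and at 5 without AS sample 3 or WT sample 3. The count below it (3) was 1 without a filter, 4 with DESeq2 and limma-voom, and 1 to 6 with a sample left out, at 6 without WT sample 1 and at 1 when any other sample was left out. The cause of the other shifts was not tested. The median log2 fold change of the family lay between 0.06 and 0.10 in the settings with all samples and between -0.0017 and 0.11 with a sample left out. The share of counts in ribosomal protein genes differed by 0.159 percentage points, by 0.0711 to 0.212 with a sample left out, and its exact permutation p was 0.1, the smallest possible, over protein-coding genes only or with pseudogenes added. Rpl29 lay between 1.57 and 2.41 in all settings.

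The same replicate number marks no stated link between WT and AS samples. Deviations of same-numbered samples correlated at 0.147, 0.0939 and 0.0526, other pairs at -0.130 to 0.0571, and 5 of 6 samples correlated best with their own number, a hint from the data only. With a replicate block, 22 genes were higher, 3 were lower, 13 were above and 5 below the family. For this and the other alternative settings, the share of all genes called is not given here, so the counts have no background beside them.

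Of 1310 values of single genes over these settings, 1247 kept their direction and side of the threshold or were called in neither, 45 lost and 15 gained the call, and 3 reversed: Rpl5 and Rpl41 with chromosome medians removed (-0.013 and -0.059) and Rpl24 with pseudogenes added (0.45). In addition, 39 genes changed sign in 89 values where neither fit passed the threshold. Of the 21 genes called, 8 were called in every setting: Rpl29, Rpl30, Rpl3, Rpl22l1, Rpl21, Rps28, Rps27l and Rps7. Rpl24 and Rpl36al, with at most 30 counts a sample, had standard errors of 0.53 and 0.39 on the log2 scale. Changes of that size, and also larger ones, could thus have been missed at this depth.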
